A study of Homo sapiens with 39 samples.

Results

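The genes described here are 49 ribosome biogenesis factors: nucleolar scaffold proteins, RNA polymerase I subunits, small nucleolar ribonucleoprotein (snoRNP) proteins, and assembly factors of the small and large ribosomal subunits. They were chosen by gene symbol and not by a threshold on measured values, although earlier results of these data were known. The array's annotation named a probe for 45 of them, and 44 passed the detection filter, out of 11538 genes tested in all. GNL3, WDR43, DDX18 and EBNA1BP2 were not analysed here, and UTP20 passed detection on 0 of 39 arrays.

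Ribosomes are made in the nucleolus, where RNA polymerase I transcribes a long precursor that carries the 18S, 5.8S and 28S ribosomal RNAs. Box C/D and H/ACA snoRNPs modify that precursor, the small-subunit (SSU) processome folds and cuts out its 18S part, and a separate set of factors builds the large (60S) subunit. Growing and dividing B-lineage cells run this pathway hard, and many of its genes are known targets of the transcription factor MYC.

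Total RNA was measured on Illumina BeadChip arrays in 2 human B-lineage lines: IM9, a line transformed by Epstein-Barr virus that the labels call sensitive, and U266, a multiple myeloma line that they call tolerant. The agent was ch128.1Av at 10 nM, an antibody-avidin fusion protein directed at transferrin receptor 1, through which cells take up iron. Cells of each line were taken after ch128.1Av at 1, 3, 9 and 24 h, after buffer at the same hours, and untreated at 0 h; buffer and untreated groups are both labelled Control. Of the 18 groups, each had 2 arrays, or 3 for ch128.1Av in IM9 at 3 h and for ch128.1Av in U266 at 1 h and 9 h, for 19 IM9 and 20 U266 arrays.

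Levels are log2 normalized intensities of 1 probe per gene, so they compare arrays and not genes. Each difference is a log2 difference with its standard error (SE) from a single limma model over all 18 groups, and "called" means a Benjamini-Hochberg adjusted p under 0.05 over the 11538 genes. The labels do not say that replicates were separate cultures, so these p-values measure the spread between arrays, which may be technical. The number of arrays limits the precision.

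Median raw intensity per array ran between 137.9 and 223.3, and 8967 to 10067 probes were detected. The B cell genes CD79A and CD22 were detected on all 19 IM9 arrays and on 0 of 20 U266 arrays, while CD79B was detected on every array of both lines (averages 9.79 and 9.56). The plasma cell surface genes SDC1 and TNFRSF17 averaged 9.23 and 12.98 in IM9, against 13.24 and 15.11 in U266, where SDC1 passed detection on 13 of 20 arrays. IRF4, a factor that plasma cells need, averaged 11.58 in IM9, against 11.41 in U266, detected on every array. In IM9, however, the B cell markers PAX5 and MS4A1 were detected on 0 and 1 arrays. A set of 7 U266 arrays had a highest raw signal above 60000, and the other 32 arrays did not. That set holds all 3 ch128.1Av arrays at 1 h, 1 ch128.1Av array at 3 h, 1 at 9 h, and both Control arrays at 9 h. In IM9 at 24 h, the spread of raw intensity (75th over 5th percentile) was 6.71 and 3.97 on ch128.1Av arrays, against 9.24 and 9.29 on Control arrays. The 5th percentile itself was 134.0 to 147.2 on IM9 arrays from 0 to 9 h, against 90.4 to 118.1 on those of 24 h. On the 0 h arrays it was 140.5 and 137.5 in IM9, against 108.5 and 92.0 in U266. The part of these shifts in the differences reported here was not tested. Bulk RNA from a culture cannot separate fewer cells of a kind from less RNA per cell.

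Most of these genes had higher levels in IM9 than in U266 before any treatment. At 0 h, 32 of the 44 were called higher in IM9 and 2 lower, while 33.3% of all genes tested were called higher and 34.0% lower (67.3% in either direction). The median difference over the 44 was 0.63, against -0.00 over all genes. Of the 32, 13 differed by at least 2-fold, and none of the genes lower in IM9 did. With arrays scaled to equal medians 25 were called higher and 1 lower, and GNL3L, PWP2, DDX21, TSR1, WDR12, RRP15, RRP1B and DDX56 were those that lost the call. Over all 20 Control arrays, which include those of 0 h, limma called 36 higher and 6 lower, beside 40.8% and 42.1% of all genes (82.9% in either direction).

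**Figure D1:**
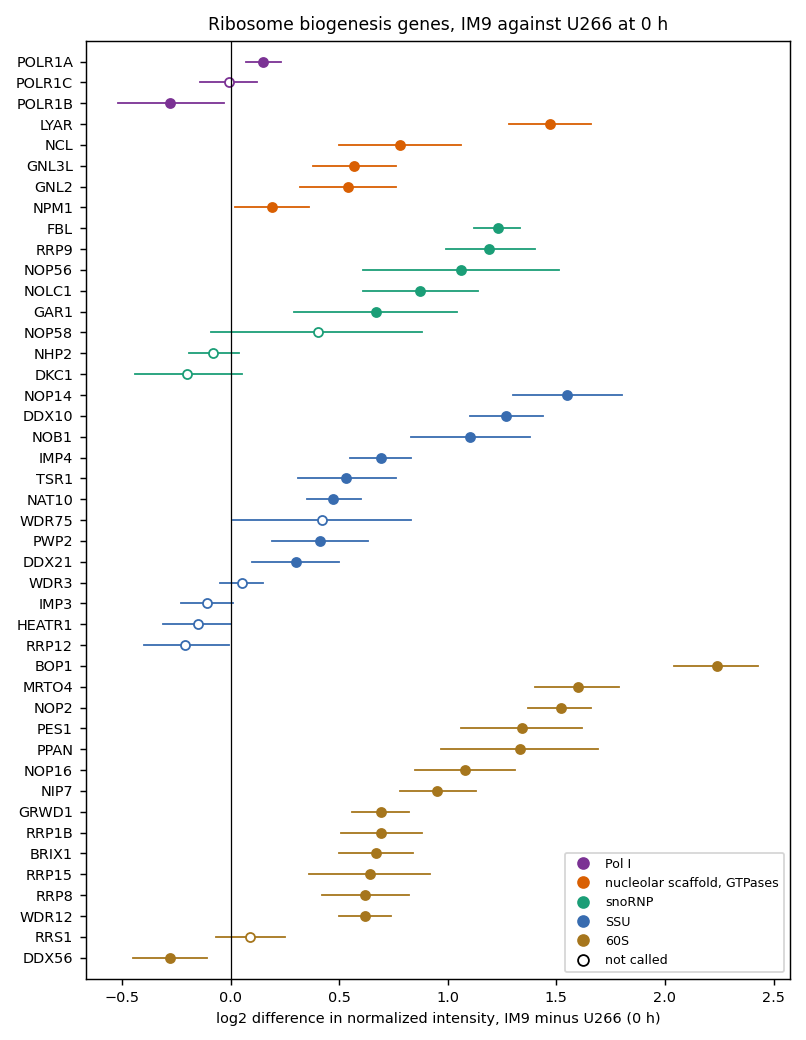
Log2 difference in normalized intensity between IM9 and U266 at 0 h (x axis, IM9 minus U266) for the 44 genes tested (y axis), grouped and coloured by role. Points are limma estimates from 2 arrays per line, bars are 95% confidence intervals, and open points were not called; BOP1 lies farthest right at 2.24 and POLR1B and DDX56 farthest left at -0.28.

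Among the assembly factors of the 60S subunit, 13 of 15 were called higher in IM9 and 1 lower, and the largest single difference was in this group. BOP1, which forms the PeBoW complex with PES1 and WDR12, read 13.64 and 13.68 on the IM9 arrays at 0 h, against 11.36 and 11.49 on the U266 arrays. That is 4.71-fold higher in IM9 (log2 difference 2.24, SE 0.10, limma adjusted p = 2.3e-16). Over the whole time course the lines did not meet: BOP1 ran between 13.29 and 13.82 on the 19 IM9 arrays (median 13.64), against 11.06 to 11.64 on the 20 U266 arrays (median 11.43). Its partner PES1 read 11.27 and 11.45 in IM9, against 9.85 and 10.20 in U266, a difference of 1.34 (SE 0.14, limma adjusted p = 5.06e-09). WDR12, the third subunit, differed by less, with 11.99 and 12.04 in IM9, against 11.44 and 11.35 in U266 (0.62, SE 0.06, limma adjusted p = 1.48e-09; 0.0556 with equal medians).

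MRTO4, whose yeast counterpart holds the place of a stalk protein on the immature subunit, read 12.10 and 12.15 in IM9, against 10.48 and 10.58 in U266 (1.60, SE 0.09, limma adjusted p = 1.91e-13). NOP2, which methylates a cytosine of 28S RNA, read 13.40 and 13.38 in IM9, against 11.85 and 11.89 in U266 (1.52, SE 0.07, limma adjusted p = 1.1e-15). A second NOP2 probe gave 0.05, at a mean level of 7.82, near the lowest level that passed detection, and was detected on 16 arrays. PPAN, required for 60S maturation, was further apart between its U266 arrays, with 11.48 and 11.55 in IM9, against 9.98 and 10.39 in U266 (1.33, SE 0.17, limma adjusted p = 2.94e-07). PPAN lies next to P2RY11 and is known to be read through into it, which the probe was not checked for. Both arrays of IM9 were above both of U266 for each of these genes. Since they were named for their large differences, this adds no support, and the share over all genes at 0 h was not computed. The exception among 60S factors was DDX56, an RNA helicase, at 12.09 and 12.30 in IM9, against 12.45 and 12.50 in U266 (-0.28, SE 0.08, limma adjusted p = 0.00475). Its call was lost with arrays scaled to equal medians, and without the first IM9 array its limma adjusted p was 0.122. RRS1 was not called (0.09, 95% interval -0.07 to 0.25).

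Of the 13 SSU processome and 18S maturation genes, 8 were called higher in IM9 and 0 lower. NOP14, a scaffold of the processome, read 11.74 and 11.77 in IM9, against 10.08 and 10.33 in U266 (1.55, SE 0.12, limma adjusted p = 3.59e-11). DDX10, a helicase, read 11.86 and 11.96 in IM9, against 10.68 and 10.61 in U266 (1.27, SE 0.08, limma adjusted p = 1.14e-12). NOB1, the endonuclease that makes the 3′ end of 18S RNA, read 10.27 and 10.31 in IM9, against 9.16 and 9.21 in U266, a difference of 1.10. Of the large proteins of the early processome, HEATR1 differed by -0.15 (95% interval -0.31 to -0.00) and WDR3 by 0.05 (-0.05 to 0.15), neither called. RRP12 (-0.21), IMP3 (-0.11) and WDR75 (0.42) were not called either. WDR3 lay close to the lowest level that passed detection, which was 7.77 to 7.79 on every array.

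Among the snoRNP proteins, the box C/D methyltransferase FBL had the smallest standard error. It read 13.88 and 13.93 in IM9, against 12.69 and 12.67 in U266 (1.23, SE 0.05, limma adjusted p = 1.48e-16). RRP9, a protein of the U3 snoRNP, differed by 1.19 and NOP56, a core box C/D protein, by 1.06, while its partner NOP58 was at 0.40 and not called. The H/ACA proteins split: GAR1 was called higher in IM9 (0.67), while DKC1, the pseudouridine synthase, and NHP2 were at -0.20 and -0.08 and were not called. Over all Control arrays DKC1 and NHP2 were called lower in IM9 (-0.22 and -0.09), as was the processome protein IMP3 (-0.20). These 3 signs turned positive when arrays were scaled to equal medians in place of quantile normalization (0.01, 0.15 and 0.03).

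All 5 scaffold proteins and GTPases tested were called higher in IM9. LYAR, a nucleolar protein of pre-rRNA processing, read 12.77 and 12.65 in IM9, against 11.15 and 11.33 in U266 (1.47, SE 0.09, limma adjusted p = 7.84e-13). The RNA-binding protein NCL (nucleolin) differed by 0.78, and the GTPases GNL3L and GNL2 by 0.57 and 0.54. NPM1 (nucleophosmin) differed by 0.19 (SE 0.08, limma adjusted p = 0.0414), and its arrays overlapped, at 14.96 and 14.82 in IM9, against 14.51 and 14.89 in U266. With array brightness as a covariate it was at 0.08 (limma adjusted p = 0.394), and with equal medians the adjusted p of GNL3L was 0.0573. NPM1 has many processed pseudogenes, and the probe's match to them was not tested.

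Of the 3 RNA polymerase I subunits, 1 was called higher in IM9 and 1 lower, and their median difference was -0.01. POLR1B, the second-largest subunit, read 8.53 and 8.51 in IM9, against 8.74 and 8.85 in U266 (-0.28, SE 0.12, limma adjusted p = 0.0408). That call was lost whichever of the 4 arrays was left out, although over all Control arrays the difference was -0.36 (limma adjusted p = 9.61e-07). POLR1C, shared with RNA polymerase III, differed by -0.01 (95% interval -0.14 to 0.12). POLR1A, the largest subunit, was called higher in IM9 by 0.15 but was detected on 22 of 39 arrays, 19 of IM9 and 3 of U266. It ranged within 7.89 to 8.09 in IM9, against 7.75 to 7.89 in U266, close to the lowest level that passed detection.

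On every IM9 array the 44 genes had a higher median level than on any U266 array, between 11.79 and 12.20 against 11.38 to 11.53. For 19 of the 44, all 19 IM9 arrays lay above all 20 U266 arrays, treated arrays included, and for 0 of the 44 all lay below. Over all 11538 genes these shares were 21.2% above and 22.2% below. The other genes of the pathway, taken from a list of 108 of which 102 were tested, were also mostly higher: 68 were called higher in IM9 and 11 lower, with a median of 0.49. EMG1, a methyltransferase of 18S RNA, had the smallest p among them, at 2.78 (SE 0.09, limma adjusted p = 3.06e-19), followed by LAS1L (1.46), the GTPase GTPBP4 (2.10) and the helicase DDX47 (0.90). MYC read 12.20 and 12.52 in IM9, against 8.16 and 8.13 in U266 (4.21, SE 0.06, limma adjusted p = 3.84e-26). Over all U266 arrays MYC ran between 7.98 and 8.21, close to the lowest level that passed detection, so its changes within U266 are poorly measured. The proliferation marker MKI67 was lower in IM9, at 8.55 and 8.58, against 8.86 and 9.08 in U266 (-0.41, limma adjusted p = 0.0407). Their part in the differences of the 44 genes was not tested.

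Since the genes lay higher together in IM9, their promoters were searched for the canonical E-box CACGTG, the site that MYC with its partner MAX is known to bind. The word reads alike on both strands, and 300-base windows from RefSeq on GRCh38.p14, 250 bases before to 50 after each start, were available for 42 of the 49 genes. It was present in 10 of the 38 windows of genes tested here (26.3%). The share was 26.6% of 94 windows of the other pathway genes, 10.7% of 8666 windows of genes tested on the arrays and 7.26% of all 35116 windows in the table. Below are 110 bases (80 before to 30 after the start, 5′ to 3′ on the gene's strand) of the 5 such genes with the largest difference between lines whose site falls inside that stretch, with CACGTG in capitals. RRP15 and LYAR follow, the genes lowest after 24 h of ch128.1Av among those called, which had no such word in their windows.
MRTO4, chr1:19251725-19251834, plus strand: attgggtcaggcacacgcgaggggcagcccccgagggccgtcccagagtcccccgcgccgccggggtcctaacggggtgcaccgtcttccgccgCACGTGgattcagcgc
NOP14, chr4:2963377-2963486, minus strand: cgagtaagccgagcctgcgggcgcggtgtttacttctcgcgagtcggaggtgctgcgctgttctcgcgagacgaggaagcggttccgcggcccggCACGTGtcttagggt
PES1, chr22:30591881-30591990, minus strand: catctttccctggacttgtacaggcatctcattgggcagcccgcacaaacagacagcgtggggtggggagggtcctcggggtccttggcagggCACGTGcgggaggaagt
FBL, chr19:39846350-39846459, minus strand: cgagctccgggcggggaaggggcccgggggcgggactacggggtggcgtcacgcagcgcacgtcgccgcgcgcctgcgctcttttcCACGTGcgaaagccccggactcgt
RRP9, chr3:51941875-51941984, minus strand: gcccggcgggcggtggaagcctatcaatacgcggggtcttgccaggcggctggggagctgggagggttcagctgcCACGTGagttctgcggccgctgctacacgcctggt
RRP15, chr1:218285213-218285322, plus strand: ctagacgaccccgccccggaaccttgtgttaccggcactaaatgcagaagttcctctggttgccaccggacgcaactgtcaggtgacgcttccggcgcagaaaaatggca
LYAR, chr4:4290125-4290234, minus strand: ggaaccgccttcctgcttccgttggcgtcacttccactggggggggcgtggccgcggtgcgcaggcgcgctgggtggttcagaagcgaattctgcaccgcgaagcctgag

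In MRTO4, NOP14, PES1 and FBL the word begins 15, 16, 14 and 7 bases into the transcript, and in RRP9 at -5, where 1 is the first transcribed base. BOP1, NOLC1, NOP58, RRP12, RRP1B and RRS1 were tested on the arrays but had no window. So BOP1, with the largest difference between the lines (2.24), is in neither group below. The median difference between IM9 and U266 at 0 h was 1.21 for the 10 genes with the word (0.41 to 1.60), against 0.59 for the 28 without (-0.28 to 1.47). For ch128.1Av against Control in IM9 at 24 h the medians were 0.01 with the word (-0.25 to 0.29) and -0.18 without (-0.84 to 0.61). The ranges overlapped in both cases. These are descriptions of letters in a window, without a test, and say nothing of whether a factor bound there.

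**Figure D2:**
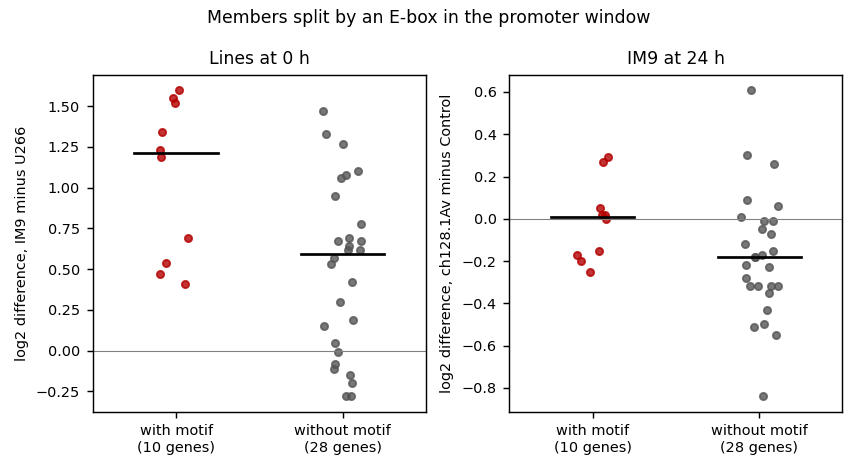
Log2 differences of the 38 genes tested that have a promoter window, split into 10 with and 28 without CACGTG; left, IM9 minus U266 at 0 h, and right, ch128.1Av minus Control in IM9 at 24 h. Points are genes and bars are medians (1.21 and 0.59 on the left, 0.01 and -0.18 on the right), and the 2 splits overlap in both panels.

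The second question is how these genes drifted in Control cultures. In IM9, 13 of the 44 were called lower at 24 h than at 0 h and 0 higher, while 7.21% of all genes were called lower and 8.96% higher (16.2% in either direction). The median over the 44 was -0.15, against 0.00 over all genes. Leaving out each array in turn gave 6 to 11 called. With arrays scaled to equal medians 0 were called, the median over all genes moved to 0.13, and that of the 44 genes to 0.07. With array brightness as a covariate 9 were called, and GAR1, NOLC1, PWP2, NOP2, NOP16, PES1 and DDX56 lost the call. The raw intensity spread was 9.24 and 9.29 on the 24 h Control arrays, against 6.17 and 4.52 at 0 h, and its part in these calls beyond that count was not tested.

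The snoRNP group gave 4 of the 13. RRP9 read 11.04 and 10.92 at 24 h, against 11.53 and 11.53 at 0 h (-0.55, SE 0.10, limma adjusted p = 0.000455), and it was already called at 9 h (-0.42, limma adjusted p = 0.015). NOLC1, a snoRNP chaperone, read 10.43 and 10.15 at 24 h, against 10.72 and 10.95 at 0 h (-0.55, SE 0.13, limma adjusted p = 0.00422). GAR1 read 9.87 and 9.59 at 24 h, against 10.20 and 10.66 at 0 h (-0.70, SE 0.18, limma adjusted p = 0.00954). The other, dimmer GAR1 probe gave -0.00, so the probes of this gene disagree.

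NOP14 read 11.23 and 11.13 at 24 h, against 11.74 and 11.77 at 0 h (-0.57, SE 0.12, limma adjusted p = 0.00191). PES1 read 10.95 and 10.67 at 24 h, against 11.27 and 11.45 at 0 h (-0.55, SE 0.14, limma adjusted p = 0.00659). GNL3L (-0.40, limma adjusted p = 0.00382), the processome protein PWP2 (-0.39, limma adjusted p = 0.0113) and DDX56 (-0.36, limma adjusted p = 0.00403) complete the 8 largest falls. For each of these 8 genes both arrays at 24 h lay below both at 0 h. They were picked as the largest called falls, so this adds no support, and the share over all genes was not computed. NOP14, RRP9 and GNL3L kept their call whichever array was left out, while GAR1, PES1, NOLC1 and PWP2 lost it without the second array of either group. The 5 smaller called falls, between -0.34 and -0.16, were NOP16, RRP12, NOP2 (0.03 on its dimmer probe), GRWD1 and FBL. MYC was called the other way (0.21, limma adjusted p = 0.0186), and MKI67 was at -0.04. MYC read 12.53 and 12.61 at 24 h, against 12.20 and 12.52 at 0 h. Its first 0 h array was the lowest of all 19 IM9 arrays, so the rise rests largely on that array. Of the 102 other pathway genes, 29 were called lower and 5 higher, with the smallest p for NOL9 (-0.46), AATF (-0.40), EXOSC4 of the RNA exosome (-0.45) and SBDS, which helps to free the 60S subunit of a factor that keeps it from joining the small one (-0.94, SE 0.15).

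Earlier hours in IM9 Control cultures gave few calls among these genes. At 1 h, however, their share at an unadjusted p under 0.05 was above that of all genes. At 9 h, RRP9 and DDX56 (-0.32) were called lower, beside 1.75% of all genes called lower and 2.17% higher (3.92% in either direction), and the call of RRP9 was lost whichever array was left out. limma called 0 of the 44 at 1 h and at 3 h, where 2.37% (1.10% higher, 1.27% lower) and 5.82% (2.93% higher, 2.89% lower) of all genes were called, and 11 and 7 of the 44 had an unadjusted p under 0.05, against 13.3% and 18.1% of all genes. The smallest p at 1 h was that of POLR1A (0.14, limma adjusted p = 0.0674) followed by FBL (-0.17) and NPM1 (0.23). At 3 h POLR1A (0.12), FBL (-0.14) and POLR1C (0.15) had the smallest p.

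In Control cultures of U266 at 24 h, 3 of 44 were called higher and 1 lower than at 0 h, with a median of 0.01 and a background of 5.62% higher and 7.03% lower (12.6% in either direction). NOP16, a 60S factor, read 12.35 and 12.11 at 24 h, against 11.79 and 11.93 at 0 h (0.37, SE 0.11, limma adjusted p = 0.0316). RRP9 read 10.77 and 10.63, against 10.24 and 10.43 (0.36, SE 0.10, limma adjusted p = 0.0192), and NPM1 rose by 0.27 (limma adjusted p = 0.0309). RRP1B, a nucleolar protein of 60S assembly, fell by 0.29 (limma adjusted p = 0.0363). None of these 4 calls held in every omission; without the first U266 array at 0 h, 0 of 44 were called. MKI67 rose by 0.76 (limma adjusted p = 0.00667), while MYC, close to the lowest level that passed detection in this line, was at 0.02.

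At 1 h in U266 Control cultures 4 genes were called lower and 1 higher, with 5.16% and 5.99% of all genes as background (11.1% in either direction). NCL read 10.40 and 10.80 at 1 h, against 11.14 and 11.37 at 0 h (-0.66, SE 0.14, limma adjusted p = 0.00328). PES1 (-0.45), GNL3L (-0.41) and POLR1C (-0.34) were the other falls, and POLR1B rose by 0.38. POLR1C alone kept its call whichever array was left out, and without the first Control array at 1 h the 44 genes had 1 call. At 3 h NOP2 (-0.24) and GRWD1 (-0.22) were called lower, beside 3.74% of all genes called lower and 7.49% in either direction. At 9 h NPM1 (0.33) was called higher, beside 1.30% called higher and 2.09% lower (3.39% in either direction), on Control arrays that both belong to the set with the highest raw signal.

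The 24 h drift was also compared between the lines. IM9 minus U266 in the change by 24 h was called negative for 11 of the 44 and positive for 1 (RRP1B, 0.38), while 12.7% of all genes were called positive and 9.94% negative (22.7% in either direction). GAR1 (-1.18, SE 0.26, limma adjusted p = 0.00265), RRP9 (-0.91, SE 0.14, limma adjusted p = 0.000113) and NOP14 (-0.91, SE 0.17, limma adjusted p = 0.000753) differed most, and all 3 calls held in each of 8 omissions. Of the 12 calls, only that of NPM1 was left with equal medians. With array brightness as a covariate only that of RRP9 was left, while 2 of the 44 were called. In U266 the raw intensity spread was 11.71 and 6.55 on the 0 h Control arrays, against 4.23 and 6.0 at 24 h. In IM9 it moved the other way, as given above. The part of these shifts in the calls beyond the counts given was not tested.

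**Figure D3:**
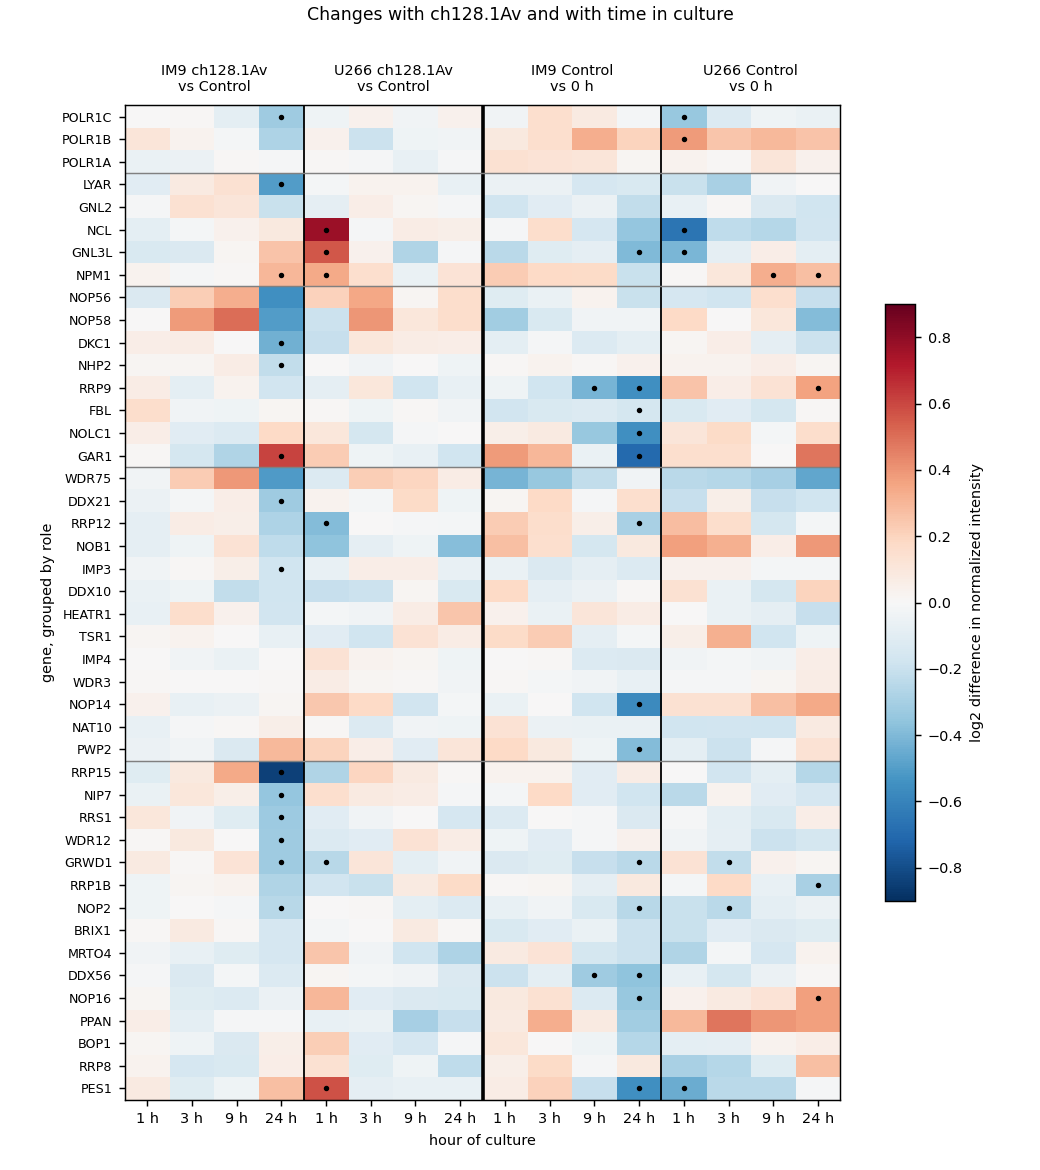
Log2 differences in normalized intensity (colour, blue lower and red higher) of the 44 genes (rows, grouped by role) for ch128.1Av against Control at the same hour and for Control against 0 h, in each line; dots mark called differences. Calls with ch128.1Av gather at 24 h in IM9 (14) and at 1 h in U266 (6), and those with time in culture at 24 h in IM9 (13).

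The third question is how ch128.1Av changed these genes relative to the Control of the same hour. In IM9 the calls came at 24 h, where 12 of the 44 were called lower and 2 higher, beside 7.23% of all genes called lower and 6.15% higher (13.4% in either direction). The median of the 44 was -0.17, against -0.00 over all genes. RRP15, a 60S assembly factor, fell most: 10.89 and 10.40 on ch128.1Av arrays, against 11.28 and 11.69 on Control arrays. It was 1.79-fold lower (log2 difference -0.84, SE 0.13, limma adjusted p = 0.00016), and was alone among the 14 in that its call held in all 10 other processing settings and in all 4 omissions of an array (highest adjusted p without an array 0.0162).

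The count rests on few arrays. Leaving out each in turn gave 3 called without the second ch128.1Av array and 18 without the first. With equal medians 6 were called, 1 higher and 5 lower, with the median of the 44 genes at -0.50 and that of all genes at -0.15. With array brightness as a covariate 9 were called, all lower. The raw intensity spread was narrower with ch128.1Av here, as given above, and its part in the calls beyond these counts was not tested.

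Large-subunit factors, the role group with the most genes tested, gave 6 of the 12 falls. NIP7, which binds pre-60S particles, read 11.92 and 11.96 on ch128.1Av arrays, against 12.20 and 12.37 on Control arrays (-0.35, SE 0.08, limma adjusted p = 0.00788). RRS1, which brings the 5S RNA particle into the subunit, read 11.32 and 11.25, against 11.66 and 11.57 (-0.33, SE 0.08, limma adjusted p = 0.00473). WDR12 read 11.77 and 11.69, against 12.09 and 12.02 (-0.32, SE 0.06, limma adjusted p = 0.000664). Of the other PeBoW subunits, BOP1 was at 0.05 (95% interval -0.15 to 0.25) and PES1 at 0.27 (-0.02 to 0.55), neither called. GRWD1, whose yeast counterpart is a chaperone of a large-subunit protein, read 11.84 and 11.86, against 12.12 and 12.22 (-0.32, SE 0.06, limma adjusted p = 0.00115). NOP2 was lower by a smaller amount (-0.25, limma adjusted p = 0.0184), and its dimmer probe gave -0.06. WDR12 and GRWD1 kept their call in all 4 omissions and lost it with equal medians, whereas RRS1 kept it in all 10 settings and lost it without the second ch128.1Av array. NIP7 and NOP2 lost it with equal medians, without the second Control array and without the second ch128.1Av array, and NOP2 also without the first Control array.

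**Figure D4:**
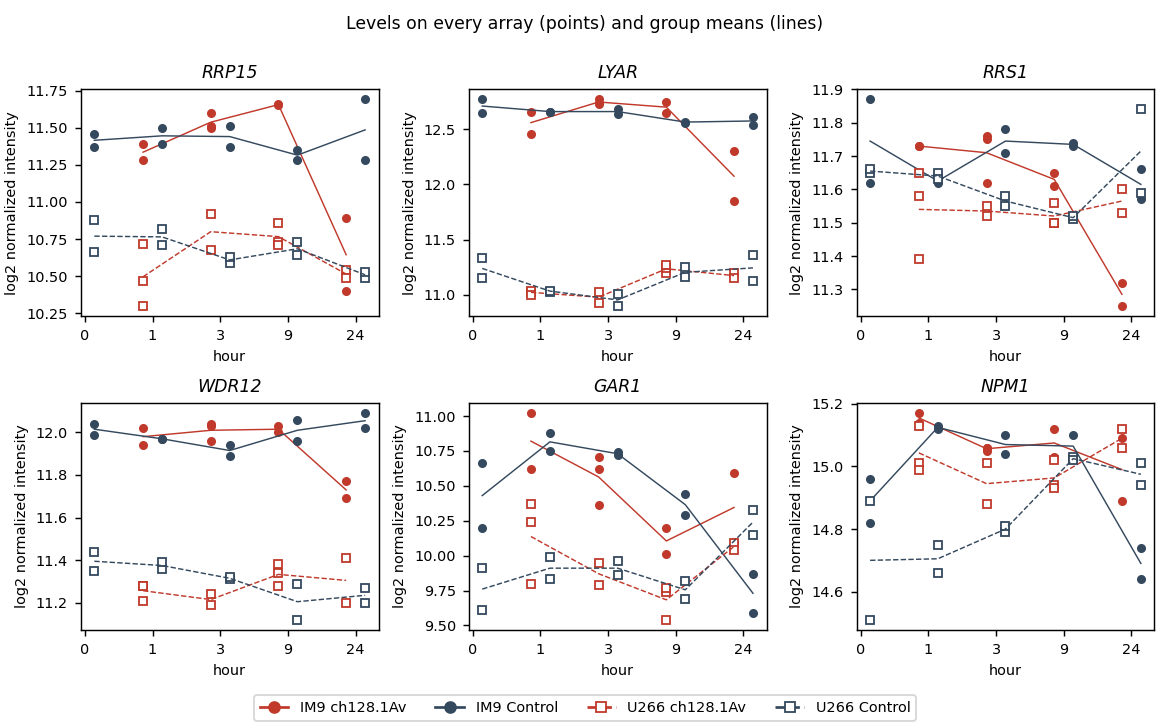
Log2 normalized intensity (y axis) of 6 genes on every array (points) by hour (x axis, not to scale), for ch128.1Av (red, left of each hour) and Control (dark, right of each hour) in IM9 (filled, solid lines) and U266 (open, dashed lines); lines join group means. RRP15, LYAR, RRS1 and WDR12 drop on the 24 h IM9 arrays with ch128.1Av, while GAR1 and NPM1 lie above the 24 h IM9 Control arrays.

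In the nucleolar scaffold group LYAR fell, at 12.30 and 11.85 on ch128.1Av arrays, against 12.54 and 12.61 on Control arrays (-0.50, SE 0.09, limma adjusted p = 0.00101). Without the second, lower ch128.1Av array its limma adjusted p was 0.0814. NPM1 was higher, at 14.89 and 15.09, against 14.64 and 14.74 (0.30, SE 0.08, limma adjusted p = 0.0162). GNL3L was at 0.26 and NCL at 0.09, neither called. The call of NPM1 was lost with brightness as a covariate, without the first Control array and without the second ch128.1Av array (highest limma adjusted p without an array 0.351).

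Among snoRNP proteins the H/ACA group split again. DKC1 read 13.02 and 12.51 on ch128.1Av arrays, against 13.11 and 13.29 on Control arrays (-0.43, SE 0.12, limma adjusted p = 0.0163), and NHP2 fell by 0.22 (limma adjusted p = 0.0102). GAR1 was higher, at 10.10 and 10.59, against 9.87 and 9.59 (0.61, SE 0.18, limma adjusted p = 0.0265), but its other probe gave 0.10. All 3 of these calls were lost with equal medians, with IM9 fitted by itself and with brightness as a covariate. All 3 were also lost without the second Control array and without the second ch128.1Av array, where DKC1 was at -0.18 (limma adjusted p = 0.569). In Control cultures GAR1 and NPM1 were at -0.70 and -0.20 at 24 h relative to 0 h, in a comparison that shares those Control arrays. The box C/D core proteins NOP56 (-0.55, SE 0.22) and NOP58 (-0.50, SE 0.23) had larger estimates than most called genes but were not called (limma adjusted p = 0.0964 and 0.171). NOP58 read 12.35 and 12.19 with ch128.1Av, against 12.43 and 13.11 in Control, so its groups did not overlap but its Control arrays lay far apart.

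Among SSU genes the helicase DDX21 fell, at 13.00 and 12.93 on ch128.1Av arrays, against 13.18 and 13.38 on Control arrays (-0.32, SE 0.10, limma adjusted p = 0.028). Its call was lost with equal medians, with brightness as a covariate and without the second array of either group. IMP3 fell by 0.18 (limma adjusted p = 0.0456), a call kept in 4 of 10 processing settings and 1 of 4 omissions. WDR75 was at -0.51 and not called, with Control arrays at 12.04 and 12.64. NOP14, FBL and BOP1, which differed widely between the lines, were at 0.02, 0.02 and 0.05 here. Of the RNA polymerase I subunits POLR1C fell, at 11.93 and 11.70, against 12.17 and 12.09 (-0.32, SE 0.06, limma adjusted p = 0.00168), POLR1B was at -0.28 and not called, and POLR1A at -0.01. The call of POLR1C was lost with equal medians and without the second ch128.1Av array.

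**Figure D5:**
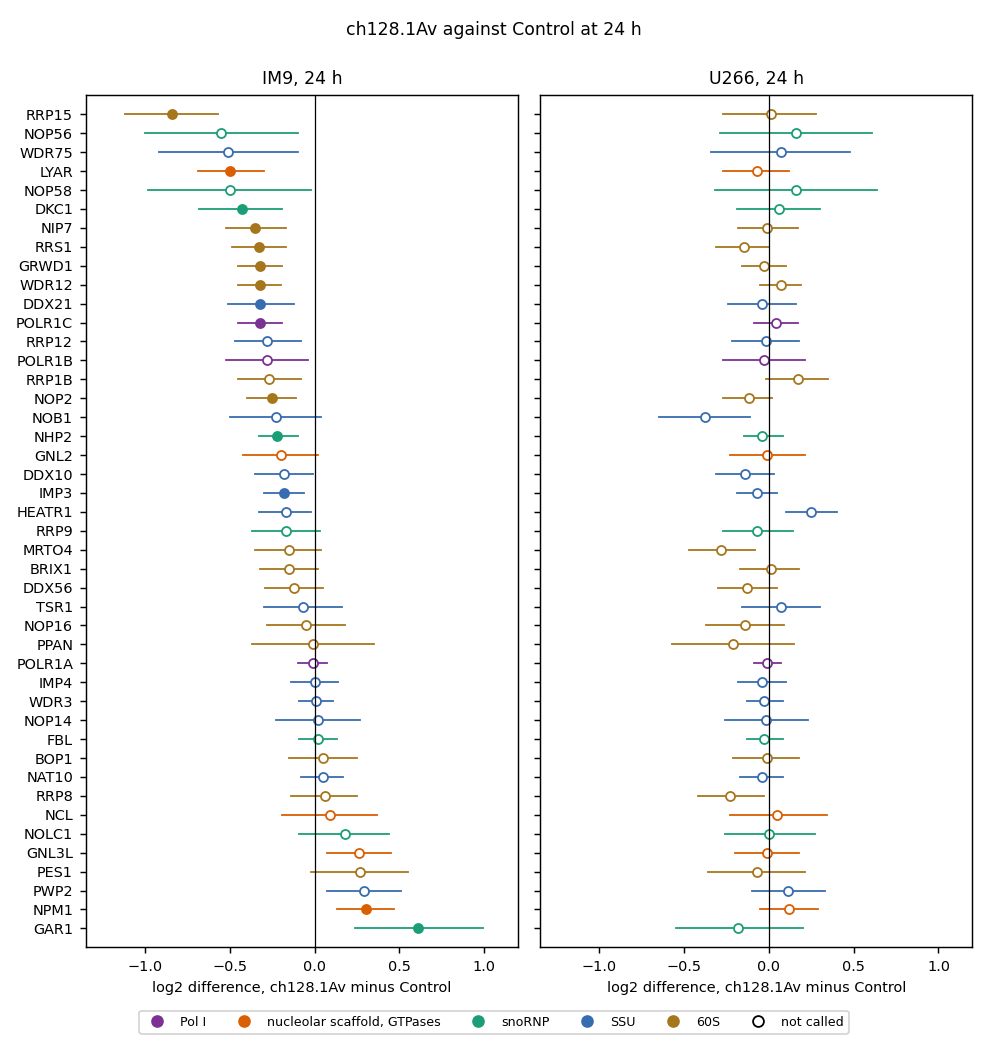
Log2 difference in normalized intensity, ch128.1Av minus Control at 24 h (x axis), for the 44 genes (y axis, ordered by the IM9 value) in IM9 (left) and U266 (right), coloured by role. Points are limma estimates from 2 arrays per group, bars are 95% confidence intervals, and open points were not called; 14 are called in IM9 and 0 in U266.

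Both ch128.1Av arrays lay below both Control arrays for 24 of the 44 genes and above them for 4, while 24.9% of all genes lay below and 23.2% above. Of the 102 other pathway genes, 18 were called lower and 1 higher in IM9 at 24 h, with a median of -0.09. The smallest p were those of LTV1 (-0.38, SE 0.05, limma adjusted p = 2.7e-05) and the kinase RIOK1 (-0.54, SE 0.08), which act in 40S maturation, then of the processome protein WDR36 (-0.44) and the kinase RIOK2 (-0.42). MYC read 12.56 and 12.66 on ch128.1Av arrays, against 12.53 and 12.61 on Control arrays (0.04, limma adjusted p = 0.767), and MKI67 was at -0.00.

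Before 24 h limma called 0 of the 44 in IM9, at a background of 0%, 0.0173% and 0.0867% of all genes at 1, 3 and 9 h. At an unadjusted p under 0.05 there were 1, 1 and 3 of the 44, against 2.05%, 4.65% and 8.71% of all genes, and 0 were called in each of the other processing settings. The smallest p at 1 h were those of FBL (0.16, SE 0.05), GNL3L (-0.14) and POLR1A (-0.06). At 3 h they were those of HEATR1 (0.16, SE 0.07), NOP58 (0.38) and WDR12 (0.09), and at 9 h those of DDX10 (-0.22, SE 0.08), RRP15 and NOP58 (0.50). RRP15, lower at 24 h, read 11.65 and 11.66 at 9 h with ch128.1Av, against 11.35 and 11.28 in Control (0.34, limma adjusted p = 0.511). MYC differed by -0.06, 0.07 and -0.03 at these hours and MKI67 by 0.04, 0.11 and -0.18, none called.

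In U266 the calls came at 1 h, with 4 higher and 2 lower, beside 4.49% of all genes called higher and 4.44% lower (8.93% in either direction). NCL read 11.41, 11.49 and 11.20 on ch128.1Av arrays, against 10.40 and 10.80 on Control arrays (0.77, SE 0.12, limma adjusted p = 0.00147). PES1 read 9.91, 10.27 and 10.24, against 9.58 and 9.56 (0.57, SE 0.12, limma adjusted p = 0.00986). GNL3L read 12.34, 12.08 and 12.10, against 11.62 and 11.61 (0.56, SE 0.08, limma adjusted p = 0.000834), and NPM1 was higher by 0.34. The 1 h Control arrays were those on which NCL, PES1 and GNL3L had been called lower than at 0 h, so the comparisons share low Control values. RRP12, which works in export of the small subunit, fell by 0.39 (limma adjusted p = 0.011) and GRWD1 by 0.25 (limma adjusted p = 0.00994).

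All 3 ch128.1Av arrays at 1 h belong to the set with the highest raw signal and neither Control array does, so treatment and array set cannot be told apart there. With the set as a block 0 of 44 were called, with equal medians 1 and with brightness as a covariate 2. Omissions of an array gave 3 to 8. Of the 102 other pathway genes 6 were called higher and 1 lower, with the smallest p for DDX27 (0.62), UTP23 (0.96), AATF (0.26) and MPHOSPH10 (0.25). MYC, close to the lowest level that passed detection in U266, was at -0.07 and MKI67 at 0.33, neither called.

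At 3, 9 and 24 h limma called 0 of 44 in U266, where 0.00867%, 0.0433% (0.0260% higher, 0.0173% lower) and 0.0173% of all genes were called and 2, 2 and 4 of the 44 had an unadjusted p under 0.05, against 4.78%, 3.59% and 7.08% of all genes. Omitting the second Control array at 24 h gave 4. DDX10 (-0.19), RRP1B (-0.20) and NAT10 (-0.12), an RNA acetyltransferase, had the smallest p at 3 h, and GNL3L (-0.27), WDR12 (0.13) and MRTO4 (-0.18) at 9 h. At 24 h they were HEATR1 (0.25, limma adjusted p = 0.251), MRTO4 (-0.28, limma adjusted p = 0.375) and NOB1 (-0.38, limma adjusted p = 0.389). RRP15 was at 0.01 in U266 at 24 h (95% interval -0.27 to 0.28), with 10.54 and 10.49 on ch128.1Av arrays, against 10.49 and 10.53 on Control arrays. WDR12 was at 0.07 (-0.05 to 0.19), LYAR at -0.07 (-0.27 to 0.12) and RRS1 at -0.15 (-0.31 to 0.00).

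The effect of ch128.1Av at 24 h differed between the lines for 5 of the 44, all lower in IM9 than in U266, beside 2.49% of all genes called negative and 4.87% in either direction. RRP15 differed by -0.85 (SE 0.19, limma adjusted p = 0.0101), RRP1B by -0.43 (limma adjusted p = 0.0496), HEATR1 by -0.42 (limma adjusted p = 0.0199), WDR12 by -0.39 (SE 0.08, limma adjusted p = 0.00752) and POLR1C by -0.36 (limma adjusted p = 0.0225). HEATR1 was at -0.17 in IM9 and 0.25 in U266, and RRP1B at -0.27 in IM9 and 0.17 in U266, none of them called within a line. With equal medians or with brightness as a covariate 0 of the 5 were called, and omissions of an array gave 0 to 10. For LYAR and RRS1 the difference between lines was not called. At 1 h GNL3L was called (-0.70, limma adjusted p = 0.0157), beside 0.0867% of all genes, on the U266 arrays of the high-signal set. limma called 0 at 3 and 9 h, with 1 and 3 of the 44 and 2.89% and 3.87% of all genes at an unadjusted p under 0.05, where 0% and 0.0173% of all genes were called. The smallest p were those of WDR12 (0.20), HEATR1 (0.19) and RRP1B (0.22) at 3 h, and of GRWD1 (0.21), GNL3L (0.29) and DDX10 (-0.23) at 9 h.

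The genes were not measured with equal precision. Pooled over the 18 groups, the standard deviation between replicate arrays was 0.25 for NOP58, 0.23 for NOP56 and 0.21 for WDR75, against 0.05 for FBL and 0.06 for WDR12. The arrays that were high for 1 of these 3 genes could be high for all: on the Control arrays of U266 at 1 h NOP58 read 12.27 and 12.89 and NOP56 12.49 and 13.12, and for WDR75 too the second array was the higher. In IM9 at 24 h, estimates of -0.50 to -0.55 for these genes were not called, while -0.18 for IMP3 was.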

How the data were processed

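Total RNA of IM9 and U266 cells was hybridised to Illumina BeadChips (39 arrays in 18 groups, grouped by their titles). The deposited scanner table holds linear probe intensity and, per the file headers, a detection value per probe, read here as a fraction that nears 1 where a probe is detected; BeadStudio is named in the submitters' processing notes, with no version or settings given in the sources used here. The deposited log2 values of the authors, which have the same distribution on every array, served as an alternative. A further 78 value columns went unused.

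Intensities were background-corrected and quantile-normalized with neqc in limma 3.58.1 (R 4.3.3; offset 16), taking 1 minus the deposited detection fraction as the detection p-value; that p failed for 197 probes on at least 1 array despite a rank in its top 5000 by intensity. A probe entered when its detection p was below 0.01 on 2 or more arrays (12080 of 20589), and the brightest on average stood for its gene; 18332 probes had 1 gene symbol and 2257 none, and unnamed probes were tested singly. A single limma model with 18 group means (21 residual degrees of freedom) gave 23 two-sided contrasts, each adjusted by Benjamini-Hochberg over 11538 genes. The code was tested on simulated data.

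The genes, lists and tests were chosen with earlier results of these data known. Genes to name were first taken as up to 8 called per direction and comparison with the largest change. Where none was called they were the 3 with the smallest p, and for other pathway genes the 4 with the smallest p. Further genes were named, without a rule, to describe a role or to complete a set of calls. Alternatives changed background correction, scaling (equal medians), filter, probe choice, lines fitted apart, a replicate block, array brightness (75th over 5th percentile) as a covariate, the high-signal array set as a block, and single arrays left out.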

Additional observations from a re-analysis of the deposited data

Results flagged for a closer look

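The effect of ch128.1Av relative to Control differed between the lines, by limma's test of that difference (IM9 minus U266), for the genes that follow. At 1 h it was GNL3L (-0.70). At 24 h they were RRP15 (-0.85), RRP1B (-0.43), HEATR1 (-0.42), WDR12 (-0.39) and POLR1C (-0.36). All of these calls were lost with equal medians. That of GNL3L was also lost with the array set as a block, and those at 24 h with array brightness as a covariate.

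The change of Control cultures by 24 h relative to 0 h was called different between the lines for 12 genes. Only NPM1 kept its call with equal medians, and only RRP9 with array brightness as a covariate. The snoRNP proteins GAR1, RRP9 and NOLC1 differed by -1.18, -0.91 and -0.71. The small-subunit factors NOP14 and PWP2 differed by -0.91 and -0.52. Among large-subunit factors, NOP16 was at -0.71, PPAN at -0.68, PES1 at -0.54, DDX56 at -0.37 and GRWD1 at -0.25, while RRP1B was at 0.38. The scaffold protein NPM1 differed by -0.47. GAR1 is measured by 2 probes, and the dimmer one gave 0.01 for the same difference.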

How the results depend on the processing

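Numbers here count called genes among the 44. Scaling arrays to equal medians moved the most counts. It gave 0 for Control against 0 h in IM9 at 9 and 24 h and in U266 at 1, 3 and 24 h, 6 for ch128.1Av in IM9 at 24 h, 1 for ch128.1Av in U266 at 1 h, 0 for the difference between lines in the ch128.1Av effect at 1 and 24 h, and 1 for that in the 24 h Control change. With the brightness covariate the Control changes gave 4 (IM9, 9 h), 9, 6 and 0 (U266 at 1, 3 and 24 h), ch128.1Av gave 9 (IM9, 24 h) and 2 (U266, 1 h), and the differences between lines 0 (ch128.1Av, 24 h) and 2 (Control, 24 h). Each line by itself gave 1 and 1 (IM9 Control at 1 and 3 h), 2, 1, 0 and 0 (U266 Control at 1, 3, 9 and 24 h) and 3 (ch128.1Av in U266 at 1 h). Both no background correction and the authors' values gave 1 (IM9 Control at 9 h), 0 (U266 Control at 3 h) and 3 (difference between lines, ch128.1Av at 24 h). No filter gave 3 and 1 (U266 Control at 1 and 3 h). The array set block gave 0 for U266 Control at 9 h, for ch128.1Av in U266 at 1 h and for the difference between lines at 1 h. The causes were not tested.

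Signs turned with equal medians for DKC1 (0.01), IMP3 (0.03) and NHP2 (0.15) in IM9 against U266 over Control arrays, for GNL3L with ch128.1Av in IM9 at 1 h (0.04) and in U266 at 9 h (0.04), and for MRTO4 there (0.17). PES1 turned in the difference between lines of the 24 h Control change (0.07), also with brightness (0.07).

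Leaving out 1 array gave 31 to 34 for IM9 against U266 at 0 h and 41 to 42 over Control arrays. For Control against 0 h it gave 0 to 1, 0 to 1, 0 to 2 and 6 to 11 in IM9 at 1, 3, 9 and 24 h, and 1 to 7, 1 to 1, 0 to 1 and 0 to 8 in U266. For ch128.1Av it gave 3 to 18 in IM9 at 24 h, 3 to 8 in U266 at 1 h, 0 to 4 in U266 at 24 h and 0 elsewhere. For differences between lines it gave 0 to 2 (1 h), 0 (3 and 9 h), 0 to 10 (24 h) and 6 to 15 (Control). A group left with 1 array is assumed to vary like the others.

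Same-numbered arrays did not deviate in the same direction consistently. The correlations of their deviations ran from -0.689 to 0.475, and some were large in either direction, so the numbers are not taken to pair arrays. With the replicate block the counts were 32 for IM9 against U266 at 0 h, 14 for ch128.1Av in IM9 at 24 h and 1 for U266 Control at 3 h. A block for the slide was not run, since the headers name none.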
